A study of Mus musculus with 2 samples.

Results

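Cytotoxic T cells and natural killer (NK) cells kill through secretory granules, and the genes described here encode 10 proteins of that machinery: the granule proteases Gzma, Gzmb and Gzmc, the pore former Prf1, the lectin receptors Klrd1 and Klrk1, the granule membrane protein Nkg7, the cytokine receptor chain Il2rb, the cathepsin Ctsw and the kinase Zap70. The 10 genes were taken out of 18194 genes with a probe set naming a single gene, and they are covered by 14 of the 45101 probe sets of the array. They were selected on the lower granzyme ratios of this same pair of arrays, so those ratios are given here as a description. The study used thioglycolate-elicited peritoneal macrophages, inflammatory macrophages drawn into the peritoneal cavity by an irritant, from wild type C57BL6 male mice of 8 weeks, plated and grown to near confluence. One sample received 100 ng/ml CSF1 for 12 h and the control sample was left without it for the same time. CSF1 (M-CSF) is the growth factor of the macrophage lineage and acts through the receptor kinase Csf1r. Each condition was measured on 1 Affymetrix Mouse Genome 430 2.0 array, so differences could not be tested against a spread between cultures or animals, and having a single pair of arrays sets the precision. The labels name no sorting of the cells and do not say how many animals were pooled.

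In a lytic granule, perforin (Prf1) opens pores in the membrane of the target cell, and granzymes pass through and cleave proteins that keep that cell alive. The receptors Klrk1 (NKG2D) and Klrd1 (CD94) read stress ligands and non-classical MHC molecules on the target, Il2rb passes on interleukin-2 and interleukin-15, which sustain NK cells and activated T cells, and Zap70 relays signals of the T-cell receptor. In mice Gzmb and Gzmc lie with related granzyme genes in a cluster of serine protease genes that also holds mast cell proteases, while Gzma lies on another chromosome.

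The granzyme promoters are shown because the granzyme ratios led to the choice of members, and because their genes fall into a closely related set and a pair of more distant ones. The windows run from 250 bases before to 50 bases after the RefSeq start site in build GRCm38.p6, all 3 on the minus strand: chr13:113100932-113101231 for Gzma, chr14:56262285-56262584 for Gzmb and chr14:56234608-56234907 for Gzmc. Capitals mark matches to TGTGGT (the core of Runx sites), TGANTCA (AP-1) and TGACGTC (the cAMP response element, CRE), each searched on both strands.
Gzma: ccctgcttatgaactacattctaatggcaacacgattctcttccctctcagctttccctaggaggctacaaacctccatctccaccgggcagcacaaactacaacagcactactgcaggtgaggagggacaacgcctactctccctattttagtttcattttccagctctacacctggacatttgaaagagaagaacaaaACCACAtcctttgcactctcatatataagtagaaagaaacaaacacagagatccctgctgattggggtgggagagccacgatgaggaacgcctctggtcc
Gzmb: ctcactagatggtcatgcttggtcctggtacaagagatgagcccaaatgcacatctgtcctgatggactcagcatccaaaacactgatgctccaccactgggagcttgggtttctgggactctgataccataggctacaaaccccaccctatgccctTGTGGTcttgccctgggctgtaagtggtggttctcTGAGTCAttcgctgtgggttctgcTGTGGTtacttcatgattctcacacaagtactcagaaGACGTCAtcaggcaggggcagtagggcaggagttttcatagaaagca
Gzmc: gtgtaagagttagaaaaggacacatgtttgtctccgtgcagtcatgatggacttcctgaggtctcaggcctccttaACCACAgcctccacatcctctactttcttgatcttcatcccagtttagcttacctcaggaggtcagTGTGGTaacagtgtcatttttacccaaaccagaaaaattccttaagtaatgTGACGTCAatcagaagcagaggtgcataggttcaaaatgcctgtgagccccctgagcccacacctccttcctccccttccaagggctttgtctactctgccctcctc

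TGTGGT was found in the windows of all 7 members that have a promoter in the RefSeq table (Gzma, Gzmb, Gzmc, Prf1, Klrk1, Nkg7 and Zap70), against 16.8% of all 32851 windows of this length. TGACGTC was found in Gzmb, Gzmc and Zap70, against 3.21% of all windows, and TGANTCA in Gzmb and Klrk1, against 7.81%. TATAAA, held by 13.6% of all windows, was found in none of these 7 genes. The motifs were chosen after the ratios had been seen, a match is a run of letters and not a known binding site, and Klrd1, Il2rb and Ctsw had no entry. For Zap70, with 3 start sites in the table, a match in any window counts. Because TGACGTCA reads the same on both strands, it counts as a pair of overlapping matches. The related genes Gzmd, Gzme, Gzmf and Gzmg were set beside Gzmc, since their windows were 86.1% to 94.0% identical over aligned bases, while pairs with Gzma or Gzmb reached 54.2% to 65.7%. Below are 24 bases of each around the CRE-like letters, in capitals, at chr14:56234699-56234722, chr14:56132639-56132662, chr14:56120672-56120695, chr14:56211474-56211497 and chr14:56159641-56159664 in that order, minus strand.
Gzmc: aagtaatgTGACGTCAatcagaag
Gzmd: aagtaatgTGATGTCAaccagaag
Gzme: aagtaatgTGACATCAaccagaag
Gzmf: aagtaatgTGACGTCAatctgaag
Gzmg: aagtaatgTGACGTCAatcagaag
The letters TGACGTCA stood in Gzmc, Gzmf and Gzmg, TGATGTCA in Gzmd and TGACATCA in Gzme.

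Both arrays had the same trimmed mean as deposited, and 43.4% of probe sets on the CSF1 array and 45.4% on the control array lay above a background level of 122.7 units, set from genes of unrelated tissues. Probe sets above it on at least 1 array are called measured, and values under it were raised to it before ratios were taken. The fold of a probe set under it on 1 array is thus a lower bound. The direction of such a probe set was fixed by the array on which it was above background, so it adds nothing to a count of directions. The hybridisation spikes had a log2 ratio of -0.29 ± 0.13 (SD between 18 spike probe sets). Actb and Gapdh were each at -0.30 on their brightest probe set, close to the spike mean. Centring on the spikes puts the median of all genes at 0.28, so every ratio below is relative to the authors' scaling. Between probe sets of 1 gene the log2 ratios had a pooled SD of 0.30 over 4002 genes. Among probe sets above background on both arrays, the SD of the log2 ratio was 0.46 at mean signals under 250 units and 0.25 above 2000 units, so that low members are less precise. The macrophage receptor gene Csf1r stood at 18697 units on the CSF1 array and 23705 on the control array. Its log2 ratio was -0.34, with -0.14 and -0.60 on its dimmer probe sets. Of 11 macrophage markers 10 were measured.

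Of the 14 member probe sets, 12 were measured, 11 of these were lower on the CSF1 array and 5 were at least 2-fold lower, with none 2-fold higher. Over all 22126 measured probe sets 53.3% were lower, 1.19% were at least 2-fold lower and 243 were at least 2-fold higher, and since this contrast chose the members, nothing is read from these counts. By gene, 4 of the 10 were at least 2-fold lower, against 0.93% of 11618 measured genes. The median log2 ratio of the 12 was -0.81, against -0.03 over all measured probe sets. Among the 12, 7 were at least 1.5-fold lower (7.39% of all measured probe sets) and 2 at least 3-fold lower (0.0678% of all). The median was -1.47 over the 3 granzyme probe sets that led to the choice and -0.57 over the 9 others, which ran from -1.61 to 0.03.

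**Figure D1:**
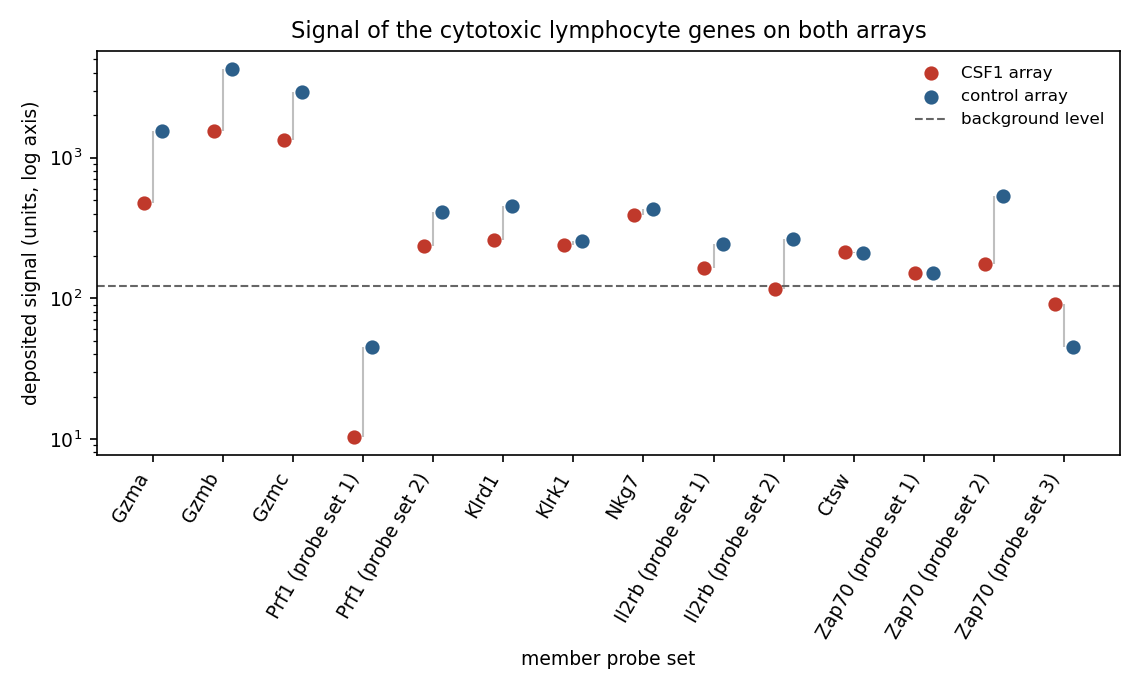
Deposited signal of the 14 member probe sets (log axis, in units of the authors' scaling) on the CSF1 array (red) and the control array (blue), with the background level of 122.7 units dashed. Each point is 1 array. The granzymes are far above the dashed line on both arrays and lower on the CSF1 array, while 1 probe set each of Prf1 and Zap70 lies under it on both.

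Among the granule proteases, Gzmb, which cleaves after aspartate and starts apoptosis in the target cell, had the signal 1543 units on the CSF1 array and 4266 units on the control array. It was 2.77-fold lower, a log2 ratio of -1.47. Gzma, a tryptase-like granzyme of NK and T cells, stood at 472 units on the CSF1 array and 1554 units on the control array, 3.29-fold lower (log2 ratio -1.72). Its probe set is one whose name marks it as possibly shared between transcripts. Gzmc, a granzyme of activated mouse cytotoxic cells, stood at 1340 units with CSF1 and 2933 units in the control, 2.19-fold lower (log2 ratio -1.13). All 3 were thus lower on the CSF1 array. In such bulk samples, fewer cells of a type and less RNA per cell cannot be told apart. Each of the 3 has a single probe set, so no spread between probe sets can be given. Centred on the spikes, Gzmc came to -0.84 and so under 2-fold, while Gzma was at -1.42 and Gzmb at -1.17.

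By log2 ratio Gzma ranked 3rd lowest and Gzmb 7th lowest of 10010 genes above background on both arrays, and Gzmc ranked 41st. With likeness taken as the distance in log2 ratio over these 2 arrays, the genes next to Gzma were Tcea2 (-1.80), Cacng7 (-1.93), Arg2 (-1.65), Zap70 (-1.61) and Chil3 (-1.51). Next to Gzmb were Chil3, Zap70 and Arg2 on the lower side and Ccl24 (-1.47), Per2 (-1.45) and Dbp (-1.39) on the higher. Arg2 encodes an arginase, Chil3 and Ccl24 are products of macrophages under interleukin-4, and Per2 and Dbp are genes of the circadian clock. With 1 array per condition such a ranking holds no more than the size of the ratio.

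**Figure D2:**
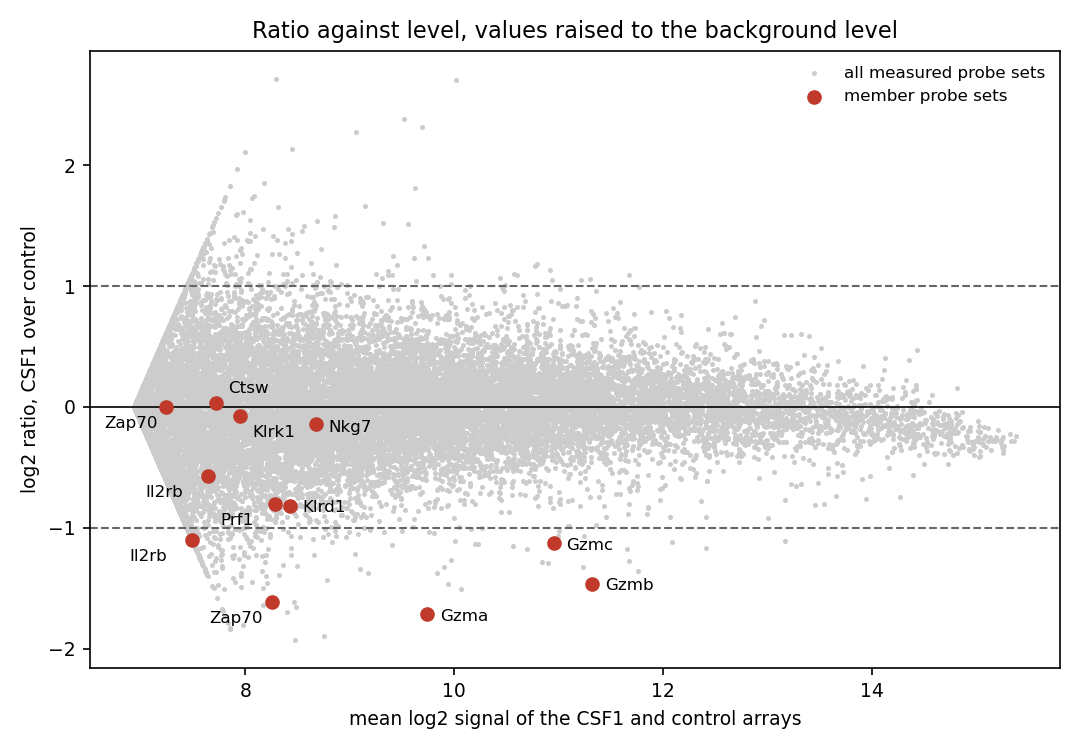
Log2 ratio of CSF1 to control plotted against the mean log2 signal, for all measured probe sets (grey) and the 12 measured member probe sets (red), values raised to the background level; dashed lines mark 2-fold. Gzma, Gzmb and Gzmc lie under the lower line at levels where the grey cloud is narrow, and the other members lie at low levels where it is wide.

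Perforin was covered by 2 probe sets. The one above background stood at 236 units on the CSF1 array and 413 units on the control array, 1.75-fold lower (log2 ratio -0.81), and its name marks it as possibly shared. The other was under the background level on both arrays, with 10.3 units with CSF1 and 44.9 units in the control, and gives no fold. Perforin was therefore lower on its measured probe set and short of 2-fold. Nkg7, a membrane protein needed for degranulation, stood at 389.97 units with CSF1 and 429 units in the control, a log2 ratio of -0.14. Ctsw, a cathepsin-like protease of cytotoxic cells, stood at 213 units with CSF1 and 209 units in the control (log2 ratio 0.03). Both log2 ratios were smaller than the pooled SD between probe sets of 1 gene.

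The receptors were also uneven. Klrd1, which pairs with NKG2 chains, stood at 259 units on the CSF1 array and 457 units on the control array, 1.76-fold lower (log2 ratio -0.82). Klrk1, whose product NKG2D binds stress-induced ligands, stood at 241 units with CSF1 and 254 units in the control (log2 ratio -0.08). Klrd1 was thus lower by more than the SD between probe sets, and Klrk1 was not. Centred on the spikes, Klrk1 (0.22) and Nkg7 (0.16) turned positive, while relative to the median of all genes they stayed at -0.06 and -0.12. Il2rb, the shared beta chain of the interleukin-2 and interleukin-15 receptors, had a first probe set at 164 units with CSF1 and 243 units in the control, 1.49-fold lower. Its second probe set stood at 116 units with CSF1, under the background level, and 263 units in the control, at least 2.14-fold lower. The mean log2 ratio of Il2rb was -0.84 ± 0.37 (SD between 2 probe sets), both in the same direction.

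Zap70 gave values that did not agree between its 3 probe sets. One stood at 175 units on the CSF1 array and 535 units on the control array, 3.06-fold lower, and another at 152 units on either array, with a log2 ratio of -0.00. The third lay under the background level on both arrays, with 91.2 units with CSF1 and 45.0 units in the control. The mean over the measured pair was -0.81 ± 1.14 (SD between probe sets), an SD larger than the mean, so the 3.06-fold value rests on 1 probe set.

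The wider granzyme family was then followed, since Gzmb and Gzmc have close relatives. Of 7 granzyme genes outside the members 5 were measured, and all 5 were lower on the CSF1 array with a median of -0.57, where 50.2% of all measured genes were lower. They were lower under the quantile, median and loess corrections too, and with the spikes as the centre, where their median was -0.28. Since lower granzyme ratios led to the choice of members, this count is a description. Gzmm and Gzmn were under background on both arrays. Gzmg stood at 2466 units with CSF1 and 4311 units in the control, 1.75-fold lower. Gzme stood at 1275 units with CSF1 and 2119 units in the control, 1.66-fold lower. Gzmd, on its brighter probe set, stood at 4614 units with CSF1 and 6666 units in the control, 1.44-fold lower, and its other probe set had a log2 ratio of -0.77. Gzmf stood at 654 units with CSF1 and 964 units in the control, 1.48-fold lower. Gzmk, a granzyme of T cells, stood at 222 units with CSF1 and 329 units in the control, 1.49-fold lower. A probe set annotated to both Gzmd and Gzme had a log2 ratio of -0.89. Gzmd, Gzme, Gzmf and Gzmg had promoter windows close to each other and to that of Gzmc, as given above, and Gzmk was not compared. The probe sequences were not used here, and whether transcripts of one granzyme gene hybridised to the probes of another was not tested.

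In the RefSeq gene order of chromosome 14, 15 protein-coding genes lie from Cma1 to Gzmb, 13 of them with a probe set of their own. The 6 measured granzyme genes of this stretch had log2 ratios from -1.47 to -0.53. Their summed signal was 11891 units on the CSF1 array and 21260 units on the control array. Beyond the granzymes, 2 of 6 genes with a probe set were measured. The mast cell chymase gene Cma1 stood at 559.6 units with CSF1 and 747 units in the control, 1.33-fold lower, and Ctsg, cathepsin G, at 183 units with CSF1 and 211 units in the control (log2 ratio -0.20). Mcpt1, Mcpt2, Mcpt4 and Mcpt8, proteases of mast cells and basophils, were under background on both arrays. The stretch was picked after the ratios had been seen.

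**Figure D3:**
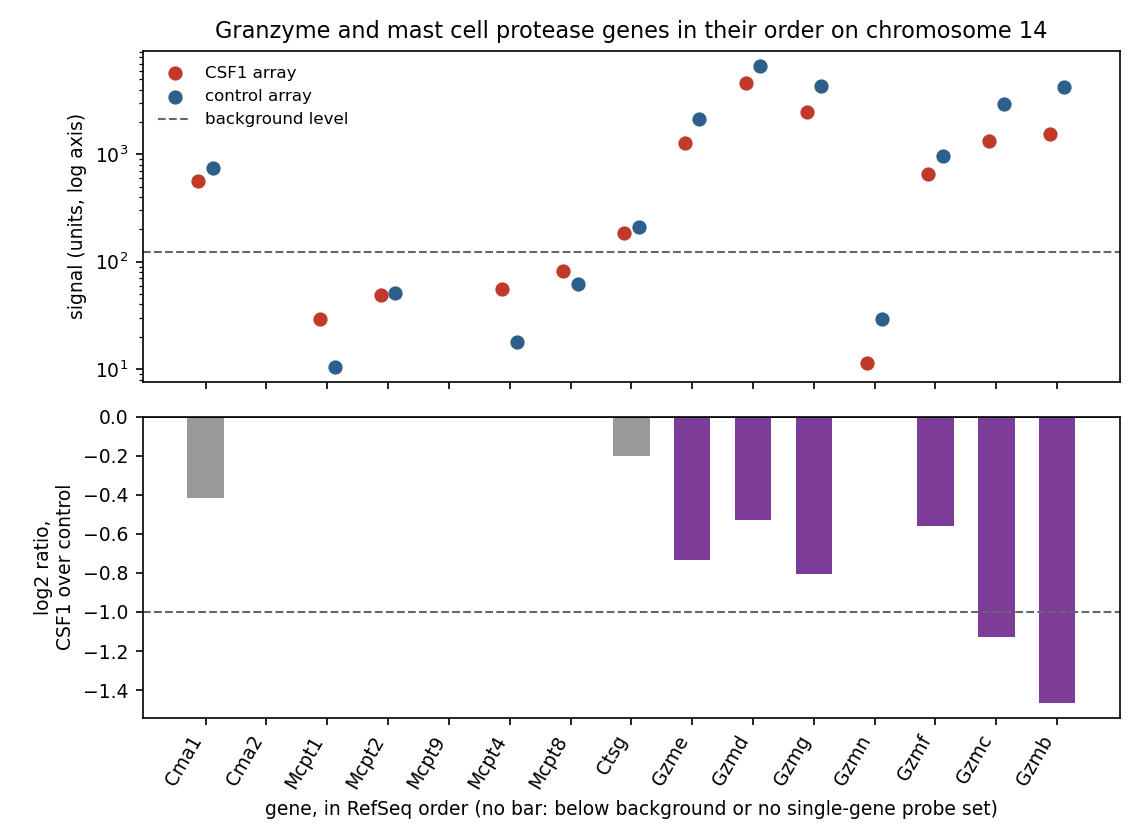
Signal (upper panel, log axis) on the CSF1 array (red) and control array (blue), and log2 ratio of CSF1 over control (lower panel), for the protein-coding genes from Cma1 to Gzmb in their order on chromosome 14. Granzyme bars are purple and others grey, and genes with no bar were below background or had no probe set of their own. All 6 granzyme bars point down, from -0.53 for Gzmd to -1.47 for Gzmb.

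Genes of the Klr family, which holds natural killer receptors, were taken over all of chromosome 6. Of 18 with a probe set only 7 were measured, among them the members Klrd1 and Klrk1, already given above. Of the 7, 6 were lower with CSF1, where 50.2% of all measured genes were lower, with a median of -0.41 and none past 2-fold. Klre1, an NK receptor, stood at 18.7 units with CSF1, under background, and 167 units in the control, at least 1.36-fold lower. One probe set of Klrc1, a partner chain of Klrd1, stood at 29.9 units with CSF1 and 187 units in the control, and its other at 127 and 133 units in the same order, a log2 ratio of -0.07. Klra2 was the exception, with 569 units with CSF1 and 298 units in the control, a log2 ratio of 0.93. These genes were taken up after their ratios had been seen. Among partners and adaptors of these receptors, 6 of 10 with a probe set were measured, 4 were lower and 2 higher, with a median of -0.09. This balance turned with the scaling, to 2 lower and 4 higher after quantile normalization and 1 lower and 5 higher with the spikes as the centre. The adaptors Tyrobp (-0.12), Fcer1g (0.10) and Hcst (0.03), which macrophages use too, lay close to 0, Slamf7 was at -0.17, and Klrg1, an inhibitory receptor, was at -0.41. Of the NKG2D ligands, Ulbp1 was at 122 units with CSF1 and 129.5 units in the control, at the background level, and 7 of the 9 listed had no probe set of their own.

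The genes that load and release granules, many of them shared with lysosomes of other cells, had smaller ratios. Of 14 measured, 13 were lower on their brightest probe set, against 50.2% of all measured genes, with a median of -0.23 and none past 2-fold. With the spikes as the centre 5 were below 0, and 13 were below the median of all genes. Rab27a, which docks granules at the membrane, stood at 259 units with CSF1 and 507 units in the control, 1.96-fold lower. Its other probe sets were under background on both arrays. Its effector Sytl2 was at least 1.72-fold lower, and Unc13d, which primes granules for fusion, 1.55-fold lower. The granule proteoglycan gene Srgn (-0.38), Ctsc, whose product activates granzymes (-0.20, with its 2 dimmer probe sets at 0.09 and 0.42), and Lamp1 (-0.24) were closer to 0. Vamp8, a vesicle fusion protein, was the single gene whose brightest probe set was above 0, at 0.37. Dimmer measured probe sets were at 0.10 for Stx11, 0.09 for Vamp7 and 0.00 for Lyst. Those of Lamp2 were at 0.07, -0.09 and -0.25. They were below 0 for Ap3b1 (-0.41), Ctsh (-0.13) and Stxbp2 (-0.02 and -0.19).

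Inhibitors of granzymes went the other way. All 5 listed were higher on the CSF1 array, where 50.2% of all measured genes were lower, with a median of 0.32 and none past 2-fold. They were also higher with the spikes as the centre. Serpinb9, the intracellular inhibitor of granzyme B, stood at 2592 units with CSF1 and 1916 units in the control, 1.35-fold higher, and its other probe set had a log2 ratio of 0.45. Serpinb6b, an inhibitor of granzyme A in mice, stood at 2143 units with CSF1 and 1448 units in the control, 1.48-fold higher. Serpinb6a (0.19) and Serpinb9b (0.18) lay closer to 0, within the pooled SD of 0.30 between probe sets of 1 gene. Serpina3n, at 153 units with CSF1 and 95.8 units in the control, was at least 1.25-fold higher. It was above background on the CSF1 array alone, so its direction was fixed in advance, and its value was the median of the list. With the stricter background level of 148.7 units the list median was 0.19 and the lowest value 0.04. Of all measured genes 1.13% were at least 2-fold higher.

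Downstream of the receptors, the antigen receptor signalling list had a median of 0.01, with 5 of 10 measured genes higher and 5 lower. With the spikes as the centre all 10 were above 0, still 5 on either side of the median of all genes. Lat, the scaffold that Zap70 phosphorylates, was 1.48-fold higher with CSF1, Ptpn6, a phosphatase that dampens these signals, was at 0.34 (-0.05 on its other probe set), Grb2 at -0.17 (0.28 on its other) and Ptprc (CD45) at -0.27. The interleukin-2 and interleukin-15 list had 5 of 7 measured genes lower and a median of -0.28, or 3 of 7 lower with the spikes as the centre. Jak3, a kinase of this receptor, was at least 1.86-fold lower, with 44.0 units with CSF1 and 228 units in the control, and Jak1 was at 0.01. Il15ra, Stat5b and Stat5a each had a pair of measured probe sets that disagreed in direction. The brighter and the dimmer one were at -0.61 and 0.17 for Il15ra, at -0.40 and 0.73 for Stat5b, and at 0.19 and -0.41 for Stat5a. Genes of cytotoxic differentiation and effector cytokines were lower in 8 of 8 measured, where 50.2% of all measured genes were lower. Their median was -0.50 with none past 2-fold, and with the spikes as the centre 6 of 8 were lower. Of the 8, 5 were above background on both arrays. The other 3, Eomes, Runx3 and Ifng, were above it on the control array alone, so their direction was fixed in advance. Prdm1, which drives terminal differentiation, was 1.63-fold lower. Eomes and Runx3, transcription factors of cytotoxic cells, were at least 1.73-fold and at least 1.63-fold lower. The other probe set of Eomes, above background on both arrays, was at -0.31. Fasl, the death ligand, was at -0.67 and the interferon gene Ifng at least 1.13-fold lower. The chemokine gene Ccl5 was at -0.34, Zeb2 at -0.22 and Id2 at -0.14 (-0.37 and -0.60 on its dimmer probe sets). Tbx21 and Xcl1 were under background on both arrays.

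**Figure D4:**
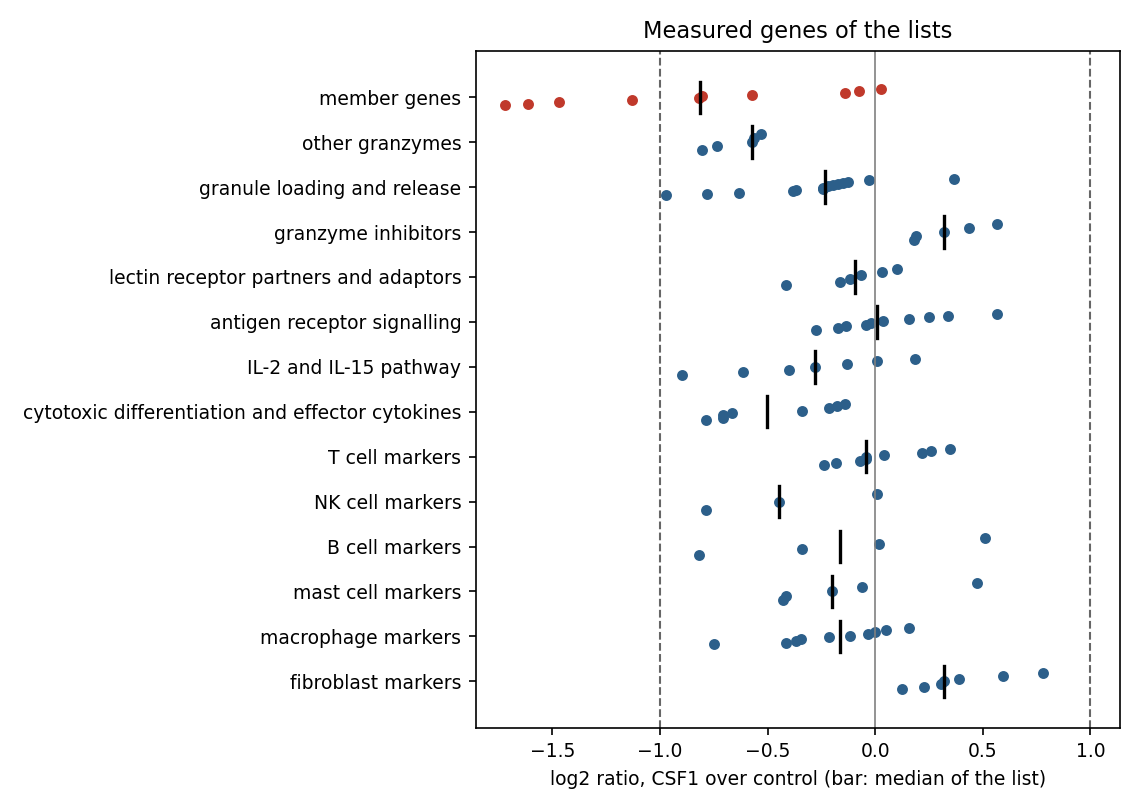
Log2 ratio of CSF1 over control for the measured genes of the lists (points, 1 per gene) with the median of each list (black bar); dashed lines mark 2-fold. Of the 10 member genes 9 lie left of 0 with Ctsw just right of it, the other measured granzymes lie left of 0, granzyme inhibitors right of it, and T cell markers on both sides.

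Markers of the cells that the cultures could hold are given beside the granzyme ratios. Signals were summed as deposited over the measured genes of each list, so values under background on 1 array enter too. Of 13 T cell markers 9 were measured, 5 lower and 4 higher, with a median of -0.04. Their summed signal was 2556 units with CSF1 and 2434 units in the control. These sums hold Cd8b1 at 143 units with CSF1 and at 22.0 units in the control, under background, so their difference is not read. Cd3g stood at 408 units with CSF1 and 419 units in the control, Cd3d at 375 and 295 units in the same order, and Thy1 at 698 and 734 units. Cd28 was at -0.24 on one probe set and 0.30 on the other, and Cd247 was at least 1.20-fold higher on 1 of its 4 probe sets, the others being under background. Cd3e, Cd4, Cd6 and Bcl11b were under background on both arrays. Cd8b1 and Cd247 were above background on the CSF1 array alone, so they could only come out higher. Of the 7 T cell markers above background on both arrays, Cd3d (0.35) and Cd5 (0.04) were higher and the others lower. The T cell markers thus lay on both sides of 0 under the authors' scaling, with a balance set in part by the background level. With the spikes as the centre all 9 were above 0, and 5 stayed below the median of all genes. Of 9 NK cell markers 6 had a probe set and 3 were measured, with Eomes and Klre1 lower as above, Ncam1 at 0.01 (-0.21 and 0.05 on its other measured probe sets), and the NK-defining gene Ncr1 under background on both arrays with Klra7 and Klra8. The summed signal of the measured genes of this list was 1012 units with CSF1 and 1260.1 units in the control. Ncam1 alone made up 886 units of the first sum and 881 units of the second. It was the only gene of this list above background on both arrays on its brightest probe set. Whether its signal came from NK cells was not tested, so no NK cell signal is read from it. Eomes and Klre1 entered with CSF1 values under background, so the difference between the sums is not read.

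Mast cells also make granzymes, and of 10 of their markers 5 were measured, 4 lower and 1 higher, with a median of -0.20 and a summed signal of 2324 units with CSF1 and 2718 units in the control. The carboxypeptidase gene Cpa3 stood at 1236 units with CSF1 and 1421 units in the control, Tpsb2 was at -0.43, Fcer1a at -0.06 and the receptor gene Kit at least 1.39-fold higher, while Mcpt4, Tpsab1, Ms4a2, Hdc and Mrgprb1 were under background on both arrays. With the spikes as the centre 2 of the 5 were lower, and 4 lay below the median of all genes. B cell markers had 4 of 6 measured: Cd79b and Cd79a were at least 1.76-fold and at least 1.27-fold lower, Ms4a1 was at 0.02 and Pax5 at least 1.42-fold higher, while Blk and Cr2 were under background. They had a summed signal of 448 units with CSF1 and 593 units in the control. Of 6 plasmacytoid dendritic cell markers 3 were measured, Tcf4 at -0.66 (from -0.49 to -0.03 on 4 further probe sets), Klk1 at -0.62 and Cox6a2 at 0.11. The Klk1 value, the median of the list, rests on 1 probe set marked as possibly shared, and its others were under background on both arrays. Siglech, Ccr9 and Pacsin1 were under background. Their summed signal was 1482 units with CSF1 and 1955 units in the control.

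Conventional dendritic cell markers had Zbtb46 alone of 5 measured, at 144 units with CSF1 and 318 units in the control, a log2 ratio of -1.14. Its 3 other measured probe sets were at 0.08, -0.16 and -0.13, so that value rests on 1 probe set. Basophil markers had Cpa3 alone of 3. Eosinophil markers had Siglecf alone of 5, at 152 units with CSF1 and 176 units in the control, a log2 ratio of -0.21. Among 8 neutrophil markers 2 were measured, Prtn3 at least 3.18-fold lower and S100a8 at 0.18. Camp, Cxcr2, Elane, Ltf, Ngp and S100a9 were under background on both arrays. The summed signal was 5576 units with CSF1 and 5228 units in the control. S100a8 alone, on a probe set marked as possibly shared, made up 5487 units of the first sum and 4838 units of the second. Prtn3 entered with a CSF1 value under background, so the difference between these sums is not read. Macrophage markers had a median of -0.16, with Mertk at -0.75, Cd68 at -0.41 and Lyz2 at -0.37, Cd163 under background, and a summed signal of 139767 units with CSF1 and 164913 units in the control. With the spikes as the centre 4 of the 10 measured were lower. Fibroblast markers were higher on their brightest probe set in 7 of 7, with a median of 0.32, where 50.2% of all measured genes were lower. Pdgfrb was at 0.78, Dcn at 0.59, Col3a1 at 0.39 and Col1a2 at 0.22. Dimmer measured probe sets were lower for Pdgfra (-0.58) and Col1a1 (-0.25). They were higher for Col3a1 (0.78), Col1a2 (0.18) and Pdgfrb (at least 1.37-fold). The summed signal of the fibroblast markers was 65019 units with CSF1 and 51368 units in the control. Mesothelial markers had 2 of 4 measured, Wt1 at 0.16 and Upk3b at least 1.31-fold higher, with a summed signal of 356 units with CSF1 and 205 units in the control. The part of any of these cells in the granzyme ratios was not tested.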

How the data were processed

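Per the labels' protocols, RNA of the cultured macrophages was labelled with biotin and hybridised to 1 array per condition. The deposited signals are on a linear intensity scale and were made by the authors with GeneSpring 6.2, per the labels of the series. Their mean after trimming 2% at each end was equal on both arrays. How probes were summarised is not stated in those labels. Of 45101 probe sets, 34958 carry 1 gene symbol, 932 several and 9211 none.

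Groups were taken from the labels. As background level served the 90th percentile over 126 probe sets (83 of 90 listed genes that unrelated tissues express). The log2 ratio of CSF1 over control was computed per probe set, and where a list counts genes, the brightest probe set on the log2 scale stood for its gene. With 1 array per group, no test was run. Named genes were all members, in each list up to 3 measured genes with the largest ratio and up to 3 with the highest level, and all measured genes of short lists. The chromosome 14 stretch, the Klr genes and the motifs were chosen after values had been seen. Members and lists were chosen with earlier results of these data known. The code for ratios was tested on simulated data. Alternatives were quantile, median, loess (span 0.3) and spike centring, other background levels, unshared probe sets, a pseudocount of 50 units and other fold thresholds. Promoters came from RefSeq (GRCm38.p6) and were aligned in pairs, globally. Tables were handled with pandas 2.3.3 and numpy 2.4.6 under Python 3.11.15, loess with statsmodels 0.14.6, trimmed means with scipy 1.17.1, alignments with biopython 1.88 and plots with matplotlib 3.10.9.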

Additional observations from a re-analysis of the deposited data

How the results depend on the processing

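With 1 array per group no replicate could be left out, and no paired analysis was possible because each group holds 1 sample. All 105 values of the 12 measured member probe sets under the 9 processing alternatives lay within the pooled SD between probe sets of 1 gene of their value as reported. So did 197 of 209 list medians. Even the largest common shift, the spike centring, is just under that SD. The outcome for the member values was thus largely fixed in advance, and that SD does not measure the uncertainty of processing. The count of member probe sets at least 2-fold lower, 5 as reported, was 3 when the spikes set the centre and 2 at a threshold of 3-fold. The spike centring moves ratios with both values above background up by just under that SD, and ratios held at the background level by less, and took Klrk1, Nkg7 and the flat Zap70 probe set (0.29) above 0. Relative to the median of all genes under that centring, the member median was -0.80. The count was 4 with the stricter background level of 148.7 units, on unshared probe sets and with the pseudocount, and 6 with no background level, where the low probe sets of Prf1, over 2-fold lower, and Zap70, over 2-fold higher, enter. The 12 list medians that moved by more than that SD were all of marker or ligand lists with 1 to 4 measured genes. With no background level they were those of NK cell (-0.77), B cell (-0.80), basophil (0.41), neutrophil (-0.29), conventional dendritic cell (-0.23) and mesothelial markers (1.28) and NKG2D ligands (0.91). With the median signal of the arrays as background level they were those of neutrophil (-0.03) and conventional dendritic cell markers (-0.62), and on unshared probe sets those of neutrophil (-1.67) and plasmacytoid dendritic cell markers (-0.27). The mean over measured probe sets put Zbtb46 at -0.34. Signal over background limits Zap70, Il2rb, Prf1, Ctsw and Klrk1, whose signals on the CSF1 array were under 250 units.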
